A study of Homo sapiens with 6 samples.

Results

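The genes described here make up the sensing of double-stranded RNA, the interferon signalling pathway and its target genes, in 12Z cells treated with an siRNA against LINC01638 or with a control siRNA. The 58 genes are a list given by symbol, with no threshold on a measured value, though it was drawn up with earlier results of these data known. All 58 were found among the 62696 genes counted and passed the filter on low counts that left 18569 genes for testing. 12Z is an established human epithelial cell line derived from endometriosis. An siRNA is a short double-stranded RNA that directs the cutting of matching transcripts. The control siRNA group and the LINC01638 siRNA group each had libraries named A, B and C, and LINC01638 is a long non-coding RNA transcribed between protein-coding genes. All 6 samples were of the same passage, were transfected with the same lipid reagent and were harvested after 72 h. The control cells had thus also taken up an siRNA, and cells without transfection were not analysed here. A single siRNA was used against LINC01638, so effects of losing the RNA and other effects of that siRNA cannot be told apart. The replicates have letters but no stated origin, so the p-values reflect how far these libraries differ, which may be technical variation.

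Cells recognise double-stranded RNA, a product of viral infection and of some of their own transcripts, with the endosomal receptor TLR3, with the cytoplasmic helicases RIG-I (gene RIGI), MDA5 (gene IFIH1) and LGP2 (gene DHX58), and with enzymes that bind it directly, PKR (gene EIF2AK2), the oligoadenylate synthetases and ADAR. RIG-I and MDA5 signal through MAVS, and DNA sensing by cGAS signals through STING, to the factors IRF3 and IRF7, which switch on interferon genes. Secreted type I interferon binds IFNAR1 and IFNAR2, activates the kinases JAK1 and TYK2, and drives a complex containing STAT2 and IRF9 to the interferon-stimulated response element (ISRE), a short promoter sequence in many antiviral genes.

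The promoter of these genes is where the pathway is read out, so matches to the core of the ISRE were looked for in the RefSeq promoter windows (GRCh38.p14, 250 bases before to 50 after each start). The letters searched were GAAANNGAAA and, on the other strand, TTTCNNTTTC. Of the 58 genes 42 had a promoter in that table, and 25 of these (59.5%) held a match, beside 1195 of 27305 genes (4.38%) and 1255 of 35116 start sites (3.57%) in the whole table. The list was drawn up from known interferon-regulated genes, so this share describes the list, and a match is only a match of letters. The 60-base windows below show the match in capitals on the strand of the gene, for genes that were higher (the first 6), lower (the next 5) and not past the test (the last 3) after LINC01638 siRNA. They are shown because matches to the same letters stand before genes of all 3 kinds. The promoters of OAS3, IFI6 and IFIH1 hold further matches outside the 60 bases printed.
TLR3 (chr4:186069102-186069161, plus strand): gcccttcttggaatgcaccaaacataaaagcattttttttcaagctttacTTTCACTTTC
EIF2AK2 (chr2:37156977-37157036, minus strand): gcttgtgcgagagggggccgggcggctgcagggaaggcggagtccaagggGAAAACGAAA
OAS3 (chr12:112938414-112938473, plus strand): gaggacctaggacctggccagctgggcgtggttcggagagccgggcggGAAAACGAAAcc
BST2 (chr19:17405723-17405782, minus strand): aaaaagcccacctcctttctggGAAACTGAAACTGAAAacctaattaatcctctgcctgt
TRIM5 (chr11:5685075-5685134, minus strand): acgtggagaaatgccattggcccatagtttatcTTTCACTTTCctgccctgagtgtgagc
PARP14 (chr3:122680779-122680838, plus strand): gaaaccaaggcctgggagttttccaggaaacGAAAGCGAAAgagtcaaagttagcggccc
IFIT1 (chr10:89392488-89392547, plus strand): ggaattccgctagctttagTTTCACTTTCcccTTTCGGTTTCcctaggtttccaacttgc
IFIT3 (chr10:89327833-89327892, plus strand): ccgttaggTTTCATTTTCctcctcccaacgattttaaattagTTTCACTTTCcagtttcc
IFIT5 (chr10:89414514-89414573, plus strand): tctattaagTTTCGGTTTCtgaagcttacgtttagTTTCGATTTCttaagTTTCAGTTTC
IFI6 (chr1:27672251-27672310, minus strand): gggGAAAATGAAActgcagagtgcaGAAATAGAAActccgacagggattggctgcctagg
GBP1 (chr1:89065301-89065360, minus strand): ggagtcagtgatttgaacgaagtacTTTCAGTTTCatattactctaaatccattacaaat
IFIH1 (chr2:162318685-162318744, minus strand): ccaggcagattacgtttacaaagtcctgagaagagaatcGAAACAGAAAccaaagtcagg
ISG15 (chr1:1013362-1013421, plus strand): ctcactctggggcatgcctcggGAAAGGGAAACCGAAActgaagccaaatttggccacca
IFITM3 (chr11:320870-320929, minus strand): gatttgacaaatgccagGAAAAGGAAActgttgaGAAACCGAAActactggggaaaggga

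Some facts about the libraries bear on every result. The gene counts came to between 45617234 and 58148664 per library. LINC01638 itself (chromosome 22, 27221349 to 27224727 on GRCh38) had 407, 334 and 414 counts in the control libraries (always given in the order A, B, C) and 125, 103 and 123 after LINC01638 siRNA, a loss of 72.6% (log2 fold change -1.87 with SE 0.11, edgeR adjusted p = 3.73e-11). Reads outside annotated exons made up 8.32% to 10.1% of mapped reads in the control libraries and 12.1% to 15.1% after LINC01638 siRNA, and their part in the results was not tested. Epithelial keratin RNA was abundant, with KRT8 at 2604 ± 106 and 1813 ± 154 CPM (counts for each 1000000 of the library, after scaling by trimmed mean of M-values, TMM; mean ± SD, n = 3) in the control and LINC01638 siRNA groups, whereas other defining epithelial markers were low, CDH1 at 8.14 ± 0.806 and 3.58 ± 0.219 CPM, EPCAM at 0.377 ± 0.068 and 1.38 ± 0.201 CPM. ESRP1 was at 0 counts in each control library and 2, 0 and 3 after LINC01638 siRNA. Of the 7 epithelial markers tested 5 were lower, among them KRT19 and CDH1 (log2 fold change -1.39 and -1.18, edgeR adjusted p = 4.97e-10 and 1.38e-08), and EPCAM was higher. The summed level of the 8 epithelial markers was 5172 to 5618 CPM in control and 3180 to 3709 CPM after LINC01638 siRNA, and that of 7 stromal markers 6704 to 8154 and 5326 to 5761 CPM. Of 16 immune markers 12 were too low to test, with CD3E, FCGR3A and LILRA4, the last a marker of plasmacytoid dendritic cells, at 0 counts in all 6 libraries, and their sum, mostly CD14 and NCAM1, was 88.0 to 108 and 75.4 to 81.7 CPM. The sum of 6 endothelial markers was 1.90 to 2.33 and 3.25 to 3.98 CPM. The part of these shifts in the results was not tested, and in bulk RNA fewer cells of a type and less RNA per cell cannot be told apart.

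LINC01638 siRNA replicate B stood apart for these genes. It was the highest of the 3 LINC01638 siRNA libraries in 37 of the 58 genes (63.8%), against 38.9% of all genes tested, while replicates A and C were the highest in 10 and 11. Among the 14 antiviral effectors outside the named families it was the highest in 12. Without it the counts changed in 4 roles. The enzymes that bind double-stranded RNA had 3 higher and 1 lower (4 and 0 with it), and receptors and kinases 2 higher and 1 lower (2 and 3 with it). The IFIT and IFITM genes had 0 higher and 5 lower (0 and 4 with it). The other antiviral effectors had 5 higher and 4 lower (4 and 2 with it). Counts by role also changed when other libraries were left out, so these changes do not set replicate B apart. Without LINC01638 siRNA replicate A the IFIT and IFITM genes had 0 higher and 3 lower. Receptors and kinases then had 2 and 2, and the other antiviral effectors 4 and 1.

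After LINC01638 siRNA the sensors TLR3 and RIG-I, PKR, all 3 genes of the OAS cluster, TRIM22, IFI44 and IFI44L were higher, while IRF3, the interferon receptor chain IFNAR1 and 4 of 7 IFIT and IFITM genes were lower, so the list did not move in 1 direction. The OAS2 call was lost without LINC01638 siRNA replicate B (log2 fold change 0.77, adjusted p = 0.0626) and without control replicate C (adjusted p = 0.0564). Of the 58 genes 20 were higher, 13 lower and 25 did not pass edgeR's quasi-likelihood test (Benjamini-Hochberg adjusted p under 0.05 over all genes tested). The 33 genes called are 56.9% of the list, and 56% of all genes tested were called, so the number of calls is not a result about these genes. Higher calls were 34.5% of the list and 26.3% of all genes tested, and lower calls 22.4% and 29.6%. The groups did not overlap in 38 of the 58 genes (65.5%), against 61.5% of all genes. Calls of at least 1.5-fold were all in the upward direction, and IRF3 fell just short of that cut-off at 1.48-fold lower. At least 1.5-fold higher were 10 genes (17.2%, against 10.9% of all genes) and at least 1.5-fold lower were 0 (against 11.9% of all genes). At an unadjusted p under 0.05 that lower count was 1, RSAD2, by edgeR and 0 by DESeq2. By limma-voom it was 1, RSAD2, which also passed after adjustment. Without LINC01638 siRNA replicate B it was 3 after adjustment (RSAD2, OASL and IRF3). It was 2 after adjustment in the counts without regard to strand (RSAD2 and IRF3). With the replicate letter as a block it was 1 (RSAD2), and without control replicate C 1 (IRF3). The log2 fold changes ran from -0.85 to 2.49 with a median of 0.073, where the median over all genes tested was -0.0014. The highest value is that of IFI44L, also 1 of the 10 genes at least 1.5-fold higher, which passed the filter through its knockdown libraries alone. Without LINC01638 siRNA replicate B, 20 genes were higher and 15 lower. The split depended on the scaling: with library totals alone in place of TMM, which moved the median of all genes by 0.10 on the log2 scale, 31 genes were higher and 5 lower (86.1% of calls higher, against 60.6%). Over all genes the share of calls that were higher went from 47.0% to 59.7%.

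**Figure D1:**
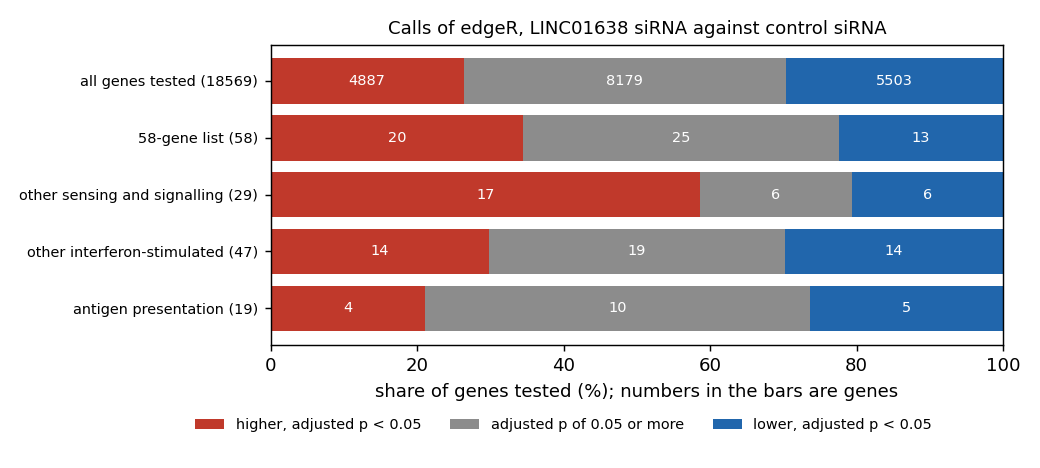
Each bar gives the share of tested genes (x axis, percent) that were higher, not called or lower after LINC01638 siRNA by edgeR at an adjusted p under 0.05, with the number of genes in the bar, for all genes tested, the 58 genes and 3 other lists. In the 58-gene bar 20 genes were higher and 13 lower, and 25 lie between.

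**Figure D2:**
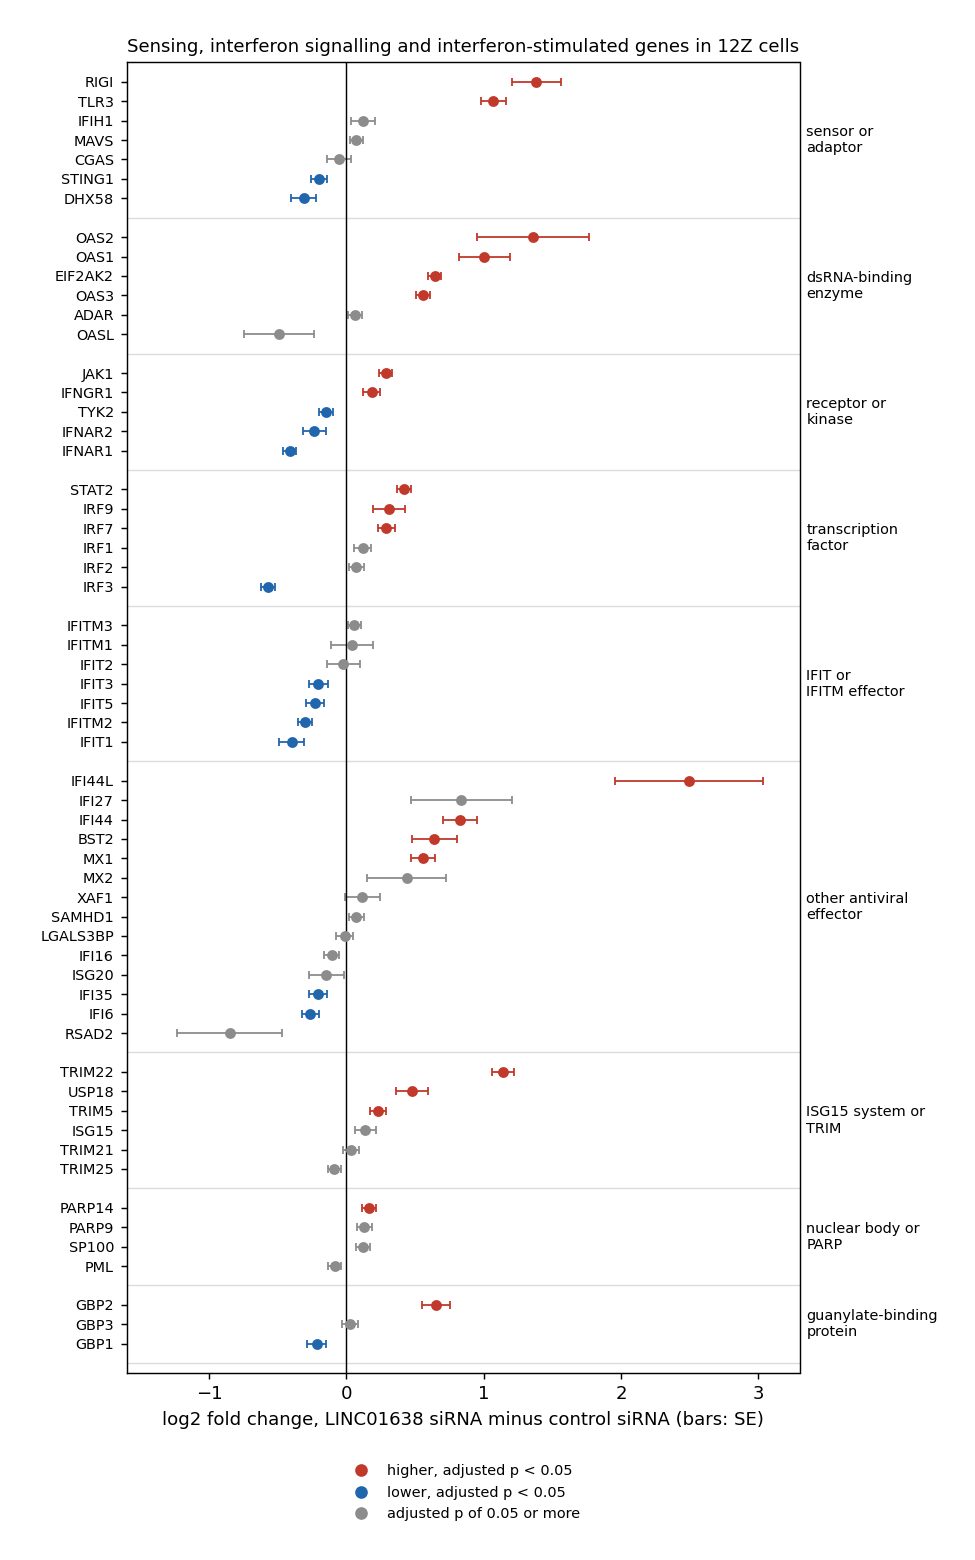
Log2 fold change (x axis, LINC01638 siRNA minus control siRNA) of each of the 58 genes with its SE as a bar, grouped by role, n = 3 libraries a group. Red points were higher and blue points lower at an adjusted p under 0.05, and they occur in nearly every role; the points furthest right are IFI44L at 2.49 and RIGI at 1.38.

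Among the 7 sensors and adaptors, TLR3 and RIGI were higher, DHX58 and STING1 lower, and IFIH1, MAVS and CGAS did not pass. TLR3, the endosomal receptor for double-stranded RNA (chromosome 4, 186069152 to 186088069), stood at 4.71, 5.04 and 4.96 CPM in control and at 9.89, 10.8 and 10.1 CPM after LINC01638 siRNA. Every library of the knockdown group lay above every control library, and the spread within a group was small beside the gap. The difference was 2.10-fold, with a log2 fold change of 1.07 (with SE 0.091, edgeR adjusted p = 5.49e-09). RIGI, whose helicase recognises short RNA ends with a triphosphate (chromosome 9, 32455705 to 32526324), stood at 0.826, 0.916 and 0.830 CPM in control and 2.42, 2.19 and 2.10 CPM after LINC01638 siRNA. Its groups did not overlap either, at a level where a library held 44 counts in control replicate A and 132 in LINC01638 siRNA replicate A. RIGI rose 2.61-fold (log2 fold change 1.38 with SE 0.18, edgeR adjusted p = 1.53e-06).

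The remaining helicases did not follow RIGI. DHX58, whose product LGP2 lacks the signalling domain of the other helicases, stood at 10.1, 11.8 and 9.73 CPM in control and 8.65, 7.95 and 8.78 CPM after LINC01638 siRNA, all knockdown libraries below all controls. It fell by 0.31 on the log2 scale (SE 0.091, edgeR adjusted p = 0.00629), and with library totals alone the call was lost at an adjusted p of 0.0537. IFIH1, which detects long double-stranded RNA, overlapped between the groups at 9.29 ± 0.577 and 10.1 ± 0.682 CPM (mean ± SD, n = 3; log2 fold change 0.12 with SE 0.086, edgeR adjusted p = 0.244). MAVS, the mitochondrial adaptor of the helicases, was at 229 ± 5.36 and 241 ± 3.46 CPM, and that difference of 0.073 on the log2 scale did not pass (edgeR adjusted p = 0.195). On the DNA-sensing branch, STING1 stood at 34.5, 37.5 and 37.9 CPM in control and 31.5, 32.5 and 31.7 CPM after LINC01638 siRNA. The groups did not overlap, and STING1 fell by 0.20 on the log2 scale (SE 0.058, edgeR adjusted p = 0.00626), a call lost with library totals alone (adjusted p = 0.156). CGAS, the enzyme upstream of STING, was at 11.2 ± 1.17 and 10.8 ± 0.223 CPM (log2 fold change -0.056, edgeR adjusted p = 0.606).

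Of the 6 enzymes that bind double-stranded RNA, EIF2AK2, OAS1, OAS2 and OAS3 were higher and ADAR and OASL did not pass. EIF2AK2 encodes PKR, a kinase that halts translation when it binds double-stranded RNA (chromosome 2, 37099210 to 37157065). It stood at 132, 127 and 134 CPM in control and 207, 199 and 208 CPM after LINC01638 siRNA. Both groups were tight and far apart, with a log2 fold change of 0.64 (with SE 0.047, edgeR adjusted p = 6.25e-10). The oligoadenylate synthetases join ATP into short chains when they bind double-stranded RNA. OAS3 (chromosome 12, 112938352 to 112973249) stood at 61.8, 66.1 and 60.3 CPM in control and 90.3, 95.3 and 91.6 CPM after LINC01638 siRNA, without overlap, and rose 1.47-fold (log2 fold change 0.56 with SE 0.051, edgeR adjusted p = 1.26e-08). OAS1, upstream of OAS3 in the cluster (112906777 to 112933222), stood at 1.37, 1.47 and 0.943 CPM and 2.03, 2.85 and 2.66 CPM, again without overlap, and rose 2.0-fold (log2 fold change 1.0 with SE 0.19, edgeR adjusted p = 0.000135).

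OAS2, at the other end of the cluster (112978395 to 113011723), rested on LINC01638 siRNA replicate B. It stood at 0.601, 0.527 and 0.283 CPM in control and at 0.733, 2.04 and 0.865 CPM after LINC01638 siRNA, where replicate B was more than its group's other libraries together. The log2 fold change was 1.36 (SE 0.41, edgeR adjusted p = 0.0129). Without LINC01638 siRNA replicate B it was 0.77 (adjusted p = 0.0626), and without control replicate C it was 1.08 (adjusted p = 0.0564). OASL, a related protein without synthetase activity, lay the other way at 2.93, 4.01 and 2.68 CPM in control and 1.92, 3.33 and 1.6 CPM after LINC01638 siRNA, with overlap (log2 fold change -0.49 with SE 0.26, edgeR adjusted p = 0.13). In OASL too replicate B was the highest of its group, and without it the log2 fold change was -0.86 (adjusted p = 0.000764); limma-voom with all 6 libraries gave -0.54 (adjusted p = 0.0444). ADAR, which edits adenosine in double-stranded RNA and so keeps cellular RNA from being sensed, was among the more abundant members at 304 ± 6.53 and 318 ± 5.90 CPM (log2 fold change 0.062 with SE 0.048, edgeR adjusted p = 0.288).

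**Figure D3:**
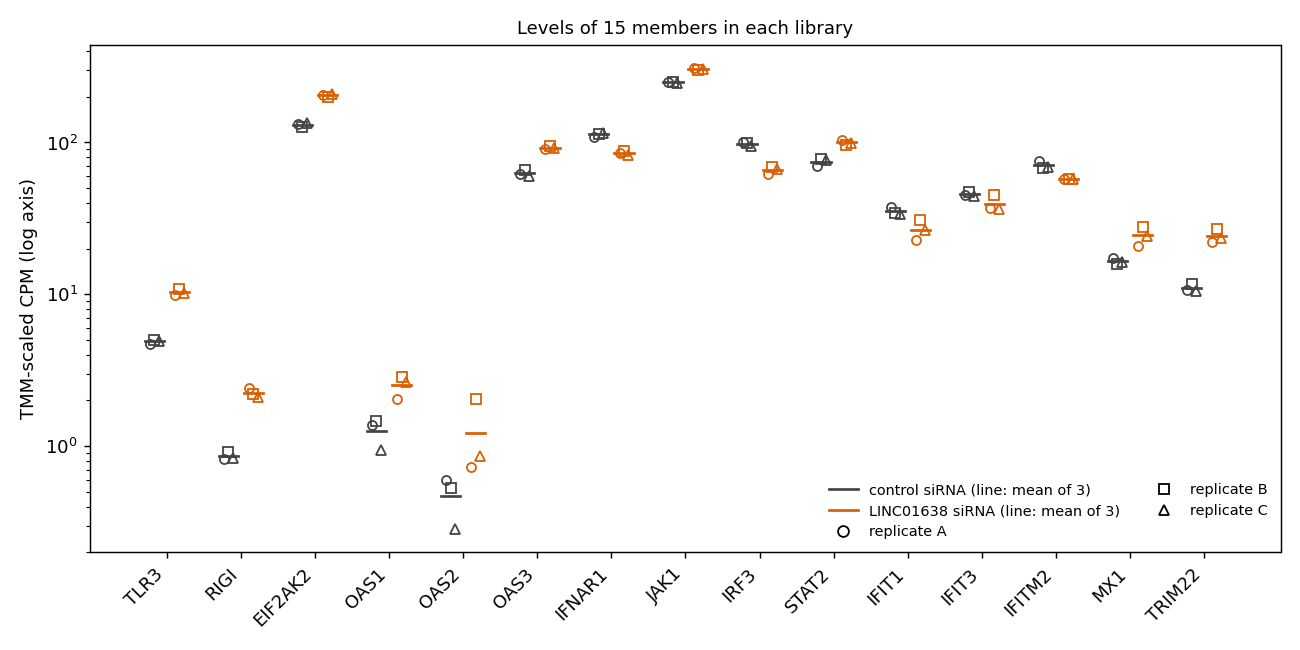
Scaled CPM (y axis, log scale) of 15 of the genes in each of the 6 libraries, control siRNA in grey and LINC01638 siRNA in orange, with a marker shape for each replicate letter and a line at the mean of 3. For TLR3, RIGI, EIF2AK2 and OAS3 the 3 orange points sit together above the grey ones, whereas in OAS2 the replicate B square at 2.04 CPM stands alone.

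Interferon RNA was nearly absent from the counts. Of 21 interferon genes of types I, II and III, 18 had 0 counts in all 6 libraries, for each of which 3 counts, or 0.0499 to 0.0687 CPM in a library, is the limit that a count of 0 allows by counting error alone. IFNE, an interferon of the reproductive tract, was the only ligand with enough counts to test, at 0.473 ± 0.068 and 0.441 ± 0.144 CPM (log2 fold change -0.11 with SE 0.32, edgeR adjusted p = 0.802). The others with any count had at most 2 over all 6 libraries. Reads that map to several places were not counted, and how far the ligand genes share sequence with each other was not tested. These limits therefore concern uniquely mapped reads, and RNA at 72 h, only.

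All 5 receptor and kinase genes were called, where 56% of all genes tested were. JAK1 and IFNGR1 were higher and IFNAR1, IFNAR2 and TYK2 lower. The calls of IFNGR1, IFNAR2 and TYK2 were each lost on leaving out some single library. Of the lower genes IFNAR1 alone stayed lower without replicate B of either group. IFNAR1, a chain of the type I interferon receptor (chromosome 21, 33324477 to 33359862), stood at 109, 114 and 116 CPM in control and 85.4, 87.4 and 82.3 CPM after LINC01638 siRNA. Its groups were clearly apart, and IFNAR1 fell by 0.41 on the log2 scale (SE 0.048, edgeR adjusted p = 3.78e-07), as it also did with library totals alone (-0.31, adjusted p = 1.47e-05). JAK1, the kinase shared by the type I and type II receptors, stood at 252, 251 and 246 CPM in control and 311, 299.8 and 303 CPM after LINC01638 siRNA, without overlap (log2 fold change 0.29 with SE 0.047, edgeR adjusted p = 3.08e-05). The other calls in this role were smaller and less stable. TYK2, the kinase bound to IFNAR1, stood at 132, 144 and 132 CPM and 122, 119 and 128 CPM (log2 fold change -0.15 with SE 0.050, edgeR adjusted p = 0.0159). The TYK2 call was lost without control replicate B (-0.11, adjusted p = 0.0945), without LINC01638 siRNA replicate A (-0.14, adjusted p = 0.0519) or B (-0.13, adjusted p = 0.0564), and with library totals alone (-0.047, adjusted p = 0.433). IFNGR1, a chain of the type II receptor, stood at 27.1, 28.6 and 30.3 CPM and 31.8, 31.6 and 34.2 CPM, narrowly without overlap (log2 fold change 0.18 with SE 0.062, edgeR adjusted p = 0.0166). The IFNGR1 call was lost without control replicate A (0.15, adjusted p = 0.0599) and without LINC01638 siRNA replicate C (0.14, adjusted p = 0.112).

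The direction of IFNAR2, the other chain of the type I receptor, depended on how reads were assigned. It stood at 13.5 ± 0.60 and 11.5 ± 1.07 CPM (mean ± SD, n = 3; log2 fold change -0.23 with SE 0.082, edgeR adjusted p = 0.0209). In the counts taken without regard to strand its log2 fold change was 0.21 and did not pass (adjusted p = 0.275), and the call was lost without control replicate B (adjusted p = 0.0742) and without LINC01638 siRNA replicate B (adjusted p = 0.0832). In the GENCODE 29 annotation 44.2% of the exon bases of IFNAR2 overlap a gene on the same strand and 39.1% a gene on the opposite strand, so its counts are uncertain.

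Of the 6 transcription factors, STAT2, IRF7 and IRF9 were higher, IRF3 was lower, and IRF1 and IRF2 did not pass. IRF3, the factor that RNA and DNA sensing activate to start interferon transcription (chromosome 19, 49659569 to 49665875), stood at 100.1, 98.7 and 95.2 CPM in control and 62.4, 69.1 and 66.7 CPM after LINC01638 siRNA. No knockdown library came near a control library. IRF3 fell by 0.57 on the log2 scale (SE 0.051, edgeR adjusted p = 1.07e-08), the largest drop of any called member. STAT2, a subunit of the complex that binds the ISRE, stood at 70.5, 77.8 and 76.2 CPM in control and 104, 96.2 and 99.9 CPM after LINC01638 siRNA, without overlap (log2 fold change 0.42 with SE 0.052, edgeR adjusted p = 8.61e-07). IRF7, which amplifies the interferon response, stood at 25.0, 27.0 and 25.7 CPM and 32.4, 30.9 and 31.7 CPM (log2 fold change 0.29 with SE 0.059, edgeR adjusted p = 0.000308). For IRF7 10.8% to 14.0% of the counts in a library lay on the opposite strand, more than the 6% that 53 of the 58 genes did not exceed.

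IRF9, the DNA-binding partner of STAT2 in that complex, was the weakest call among the factors. It stood at 3.23, 3.43 and 3.64 CPM in control and 3.98, 4.12 and 4.66 CPM after LINC01638 siRNA, without overlap (log2 fold change 0.31 with SE 0.12, edgeR adjusted p = 0.0320). The call was lost without control replicate A (0.27, adjusted p = 0.0976), without control replicate B (0.31, adjusted p = 0.0658) and without LINC01638 siRNA replicate C (0.23, adjusted p = 0.163). In addition 48.4% of the exon bases of IRF9 overlap another gene on the same strand, so its counts are uncertain. IRF1, the factor of the type II response, was at 40.6 ± 3.43 and 44.0 ± 1.83 CPM (log2 fold change 0.12, edgeR adjusted p = 0.116), and IRF2, its antagonist at many promoters, at 31.4 ± 0.747 and 33.0 ± 0.287 CPM (log2 fold change 0.072, edgeR adjusted p = 0.283).

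Genes of the IFIT and IFITM families encode RNA-binding and membrane-bound inhibitors of viral entry and translation. Of these 7 genes 4 were lower (IFIT1, IFIT3, IFIT5 and IFITM2) and 3 did not pass. The lower calls are 57.1% of the role, against 29.6% of all genes tested. Higher calls were 0, against 26.3% of all genes tested, in a role of only 7 genes. At an unadjusted p under 0.05 the higher count was also 0 by edgeR, by DESeq2 and by limma-voom. With library totals alone 1 was higher (IFITM3) and 2 were lower, IFIT1 (-0.30, adjusted p = 0.00895) and IFITM2 (-0.20, adjusted p = 0.00311), and without LINC01638 siRNA replicate B 5 were lower. IFITM2 (chromosome 11, 307631 to 315272) stood at 75.4, 67.6 and 69.4 CPM in control and 57.3, 57.4 and 57.7 CPM after LINC01638 siRNA, a wide gap, and fell by 0.30 on the log2 scale (SE 0.052, edgeR adjusted p = 5.38e-05). Of the 50-base windows of its transcripts 65.9% occur in the transcripts of no other gene, and for its close relatives IFITM1 and IFITM3 that share is 68.0% and 82.6%, so the counts of these 3 genes are uncertain. IFIT1, which binds RNA with a foreign cap (chromosome 10, 89392546 to 89406486), stood at 37.4, 34.2 and 33.9 CPM in control and 22.7, 30.9 and 26.4 CPM after LINC01638 siRNA. All knockdown libraries were below the controls and replicate B came nearest to them; the log2 fold change was -0.40 (SE 0.090, edgeR adjusted p = 0.00175), and it ranged from -0.52 to -0.30 on leaving out each library.

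The neighbours of IFIT1 on chromosome 10 showed smaller differences. IFIT5 (89414586 to 89421001) stood at 28.8, 24.5 and 27.0 CPM in control and 22.5, 22.8 and 23.4 CPM after LINC01638 siRNA, without overlap (log2 fold change -0.23 with SE 0.067, edgeR adjusted p = 0.00699), and the call was lost without control replicate A (-0.16, adjusted p = 0.0545). IFIT3 (89327894 to 89340971) stood at 45.3, 46.8 and 44.4 CPM and 37.1, 45 and 36.4 CPM, where replicate B of the knockdown group lay among the controls. Its log2 fold change was -0.20 (SE 0.069, edgeR adjusted p = 0.0175), and the call was lost without LINC01638 siRNA replicate A (-0.16, adjusted p = 0.0803) or C (-0.15, adjusted p = 0.102). IFIT2 (89283694 to 89309276) stood at 12.9, 13.3 and 12.3 CPM and 11.3, 15.9 and 10.9 CPM, with replicate B above and the other knockdown libraries below every control (log2 fold change -0.022 with SE 0.12, edgeR adjusted p = 0.892). Without replicate B its log2 fold change was -0.22 (adjusted p = 0.0302). IFITM1 was at 2.90 ± 0.411 and 2.98 ± 0.494 CPM (edgeR adjusted p = 0.844) and IFITM3 at 225 ± 5.48 and 234 ± 8.71 CPM (edgeR adjusted p = 0.338), both with overlap.

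Among the 14 other antiviral effectors, IFI44L, IFI44, BST2 and MX1 were higher, IFI6 and IFI35 lower, and 8 did not pass. IFI44 (chromosome 1, 78649796 to 78664078), an interferon-induced cytoplasmic protein, stood at 2.5, 2.79 and 2.88 CPM in control and 4.49, 5.37 and 4.62 CPM after LINC01638 siRNA, without overlap (log2 fold change 0.82 with SE 0.12, edgeR adjusted p = 1.04e-05). IFI44L, its paralogue next to it (78619922 to 78646145), was barely detected, with 9 counts summed over the control libraries and 58 over the knockdown libraries. With 3 counts in each control library and 10, 27 and 21 after LINC01638 siRNA, IFI44L passed the filter (minimum count 10) through the knockdown libraries alone. Its fold change and p-value therefore depend on that filter and are no independent support for a rise. The depth-adjusted ratio was 5.80, with an exact 95% interval of 2.85 to 13.3 that covers counting error only; per library it stood at 0.0563, 0.0687 and 0.0566 CPM and 0.183, 0.520 and 0.349 CPM (log2 fold change 2.49 with SE 0.54, edgeR adjusted p = 0.000578). MX1, a dynamin-like GTPase that traps viral ribonucleoproteins (chromosome 21, 41420304 to 41459214), stood at 17.5, 15.9 and 16.3 CPM and 20.9, 27.9 and 24.3 CPM, without overlap and with replicate B the highest (log2 fold change 0.56 with SE 0.087, edgeR adjusted p = 2.72e-05). Without replicate B the log2 fold change of MX1 was 0.45, its smallest value on leaving out any library. BST2, which tethers budding virus to the cell surface, was at 1.66 ± 0.325 and 2.57 ± 0.182 CPM (log2 fold change 0.64, edgeR adjusted p = 0.00227).

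Changes in the lower pair of this role were smaller. IFI6, an antiviral protein of the endoplasmic reticulum, stood at 29.5, 32.0 and 28.9 CPM in control and 24.1, 26.4 and 24.6 CPM after LINC01638 siRNA, without overlap (log2 fold change -0.26 with SE 0.064, edgeR adjusted p = 0.00155). IFI35 was at 27.5 ± 0.310 and 23.8 ± 1.74 CPM (log2 fold change -0.20, edgeR adjusted p = 0.0113), and its call was lost without LINC01638 siRNA replicate A (-0.15, adjusted p = 0.0814). Of the genes that did not pass, RSAD2, which encodes the antiviral enzyme viperin, stood at 0.544, 0.733 and 0.434 CPM and 0.128, 0.443 and 0.366 CPM, from 7 to 32 counts a library (log2 fold change -0.85 with SE 0.38, edgeR adjusted p = 0.0640). Without LINC01638 siRNA replicate B the value for RSAD2 was -1.17 (adjusted p = 0.0338). IFI27 stood at 0.263, 0.389 and 0.603 CPM and 1.19, 0.50 and 0.566 CPM, where replicate A alone exceeded the controls (log2 fold change 0.84 with SE 0.37, edgeR adjusted p = 0.0634). The value for IFI27 was 1.05 without replicate B (adjusted p = 0.0280), 1.01 without LINC01638 siRNA replicate C (adjusted p = 0.0406) and 1.22 without control replicate C (adjusted p = 0.0269).

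Another 6 effectors overlapped between the groups. MX2, the nuclear-pore relative of MX1, was at 0.945 ± 0.273 and 1.30 ± 0.569 CPM (edgeR adjusted p = 0.212), and XAF1, which promotes cell death, at 4.73 ± 0.412 and 5.14 ± 0.975 CPM (edgeR adjusted p = 0.459). ISG20, an exonuclease, was at 4.01 ± 0.452 and 3.62 ± 0.383 CPM (edgeR adjusted p = 0.345), and SAMHD1, which degrades deoxynucleotides, at 107 ± 1.30 and 113 ± 10.0 CPM (edgeR adjusted p = 0.290). In MX2, XAF1 and SAMHD1 replicate B was the highest library of the 6. IFI16, a nuclear DNA sensor, was at 90.8 ± 2.53 and 84.4 ± 6.96 CPM (log2 fold change -0.11, edgeR adjusted p = 0.110), and at -0.18 without replicate B (adjusted p = 0.00676). LGALS3BP, a secreted glycoprotein, was at 629.6 ± 54.4 and 624 ± 35.1 CPM (log2 fold change -0.012 with SE 0.064, edgeR adjusted p = 0.887).

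**Figure D4:**
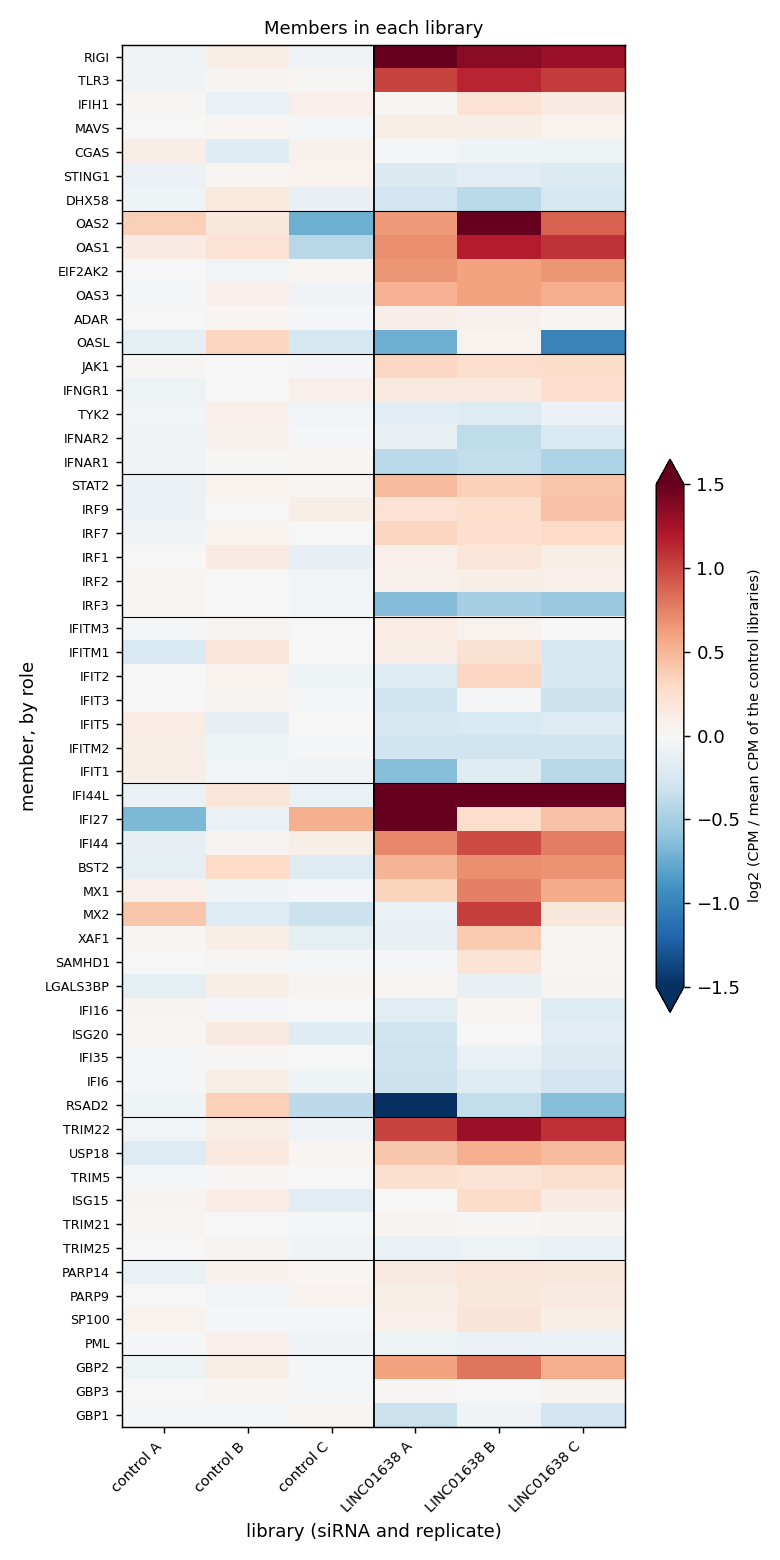
Each row is a gene and each column a library; the colour gives log2 of the CPM over the mean CPM of the 3 control libraries, red above and blue below, with the scale ending at 1.5 in either direction. The RIGI, TLR3, OAS1 and TRIM22 rows are red in all 3 LINC01638 siRNA columns, and the replicate B column is redder or less blue than its neighbours in rows such as OAS2, IFIT2, MX2 and IFI16.

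ISG15, the ubiquitin-like modifier most often used to read out an interferon response, overlapped between the groups. It stood at 28.4, 29.9 and 24.8 CPM in control and 27.5, 33.6 and 30.2 CPM after LINC01638 siRNA (log2 fold change 0.14 with SE 0.078, edgeR adjusted p = 0.144), and at 0.20 without replicate A (adjusted p = 0.0393). In the same role TRIM22, USP18 and TRIM5 were higher and TRIM21 and TRIM25 did not pass. TRIM22, an antiviral ubiquitin ligase (chromosome 11, 5689689 to 5737089), stood at 10.7, 11.7 and 10.6 CPM in control and 22.2, 27.1 and 23.5 CPM after LINC01638 siRNA. No library came near the other group, and TRIM22 had the lowest adjusted p of the list (log2 fold change 1.14 with SE 0.082, edgeR adjusted p = 4.93e-10); 10.7% of its exon bases overlap another gene on the same strand. TRIM5, the restriction factor that binds retroviral capsids, lies beside TRIM22 and stood at 25.7, 26.7 and 26.3 CPM and 31.0, 30.4 and 31.0 CPM, without overlap (log2 fold change 0.23 with SE 0.057, edgeR adjusted p = 0.00186). USP18, which removes ISG15 from proteins and dampens receptor signalling, stood at 3.17, 4.01 and 3.70 CPM and 4.78, 5.27 and 5.04 CPM, without overlap (log2 fold change 0.48 with SE 0.12, edgeR adjusted p = 0.00164), with 76.6% of its 50-base windows found in no other gene. TRIM21, a cytosolic antibody receptor, was at 21.9 ± 0.335 and 22.4 ± 0.248 CPM (edgeR adjusted p = 0.672), and TRIM25, a ligase of the RIG-I pathway, at 115 ± 3.76 and 109 ± 1.09 CPM (edgeR adjusted p = 0.117).

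In the group of nuclear body and PARP genes the 4 members differed little. PARP14, an ADP-ribosyltransferase, stood at 90.5, 101 and 99.0 CPM in control and 106, 110.3 and 109 CPM after LINC01638 siRNA, without overlap (log2 fold change 0.16 with SE 0.051, edgeR adjusted p = 0.00983), and the call was lost in the counts without regard to strand (0.12, adjusted p = 0.0623). PARP9, its partner, was at 36.1 ± 1.10 and 39.5 ± 1.27 CPM and just missed the threshold (log2 fold change 0.13, edgeR adjusted p = 0.0502), with 12.0% to 17.2% of its counts per library on the opposite strand. SP100 and PML, the scaffold proteins of nuclear bodies, were at 69.0 ± 2.43 and 74.9 ± 3.21 CPM (log2 fold change 0.12, edgeR adjusted p = 0.0542) and at 77.9 ± 4.0 and 73.4 ± 0.347 CPM (log2 fold change -0.086, edgeR adjusted p = 0.152). Guanylate-binding proteins are GTPases that attack the vacuoles of pathogens, and their genes split. GBP2 (chromosome 1, 89106132 to 89150456) stood at 4.92, 5.52 and 5.15 CPM and 7.86, 9.03 and 7.59 CPM, without overlap (log2 fold change 0.65 with SE 0.10, edgeR adjusted p = 1.47e-05). GBP1 (89052319 to 89065360) stood at 30.0, 29.8 and 31.0 CPM and 24.2, 29.2 and 24.8 CPM, with replicate B close to the controls (log2 fold change -0.22 with SE 0.070, edgeR adjusted p = 0.0124). The GBP1 call was lost without control replicate C (-0.20, adjusted p = 0.0516), without LINC01638 siRNA replicate A (-0.17, adjusted p = 0.0762) and without replicate C (-0.18, adjusted p = 0.0637). GBP3 was at 26.4 ± 0.443 and 26.9 ± 0.329 CPM (edgeR adjusted p = 0.765). Of the 50-base windows of GBP2, GBP1 and GBP3, 89.8%, 90.4% and 95.2% are found in no other gene. In GBP2 9.9% of the exon bases overlap another gene on the same strand.

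Neighbours on a chromosome did not always move together. In the OAS cluster on chromosome 12 all 3 genes were higher, as were IFI44 and IFI44L on chromosome 1 and TRIM5 and TRIM22 on chromosome 11. In the IFIT cluster on chromosome 10 IFIT1, IFIT3 and IFIT5 were lower and IFIT2 did not pass. On chromosome 1 GBP2 was higher, GBP1 lower and GBP3 not past the test, and on chromosome 21 MX1 was higher while MX2 did not pass. OASL, also on chromosome 12 but outside the cluster (121019111 to 121039242), was not called.

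Levels per kb of exon, the scale on which genes can be compared, ranged widely in the control libraries. LGALS3BP (176 CPM per kb) and IFITM3 (167) were the highest and overlapped each other, and IFITM2 (45.9), JAK1 (39.5), IFI6 (34.8), ADAR (31.4) and ISG15 (29.4) followed, the last pair overlapping. A level of at least 1 CPM per kb was reached by 45 of the 58 genes and 10 CPM per kb by 19. Of the 6 genes that were at least 2-fold higher, 5 were among the lowest: TLR3 at 0.729 CPM per kb, OAS1 at 0.255, RIGI at 0.197, OAS2 at 0.0750 and IFI44L at 0.00591, while TRIM22, the other of the 6, was at 1.83. IFI44L is among them only because its knockdown libraries passed the filter. Lower calls of any size came from genes between IFITM2 at 45.9 CPM per kb and DHX58 at 2.74. Among them were IRF3 at 25.8, IFIT1 at 7.62 and IFNAR2 at 2.94 CPM per kb. RSAD2, at 0.118 CPM per kb, did not pass with a log2 fold change of -0.85. How far the level of a gene decides whether a change is called was not tested. Exon length is that of all annotated exons of a gene, which may not be those used in these cells.

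Genes of both directions were found with and without the ISRE-like match in the promoter. Of the 25 genes with a match 9 were higher, 5 lower and 11 not called, with a median log2 fold change of 0.12, and of the 17 without a match 6 were higher, 3 lower and 8 not called, with a median of 0.12. Of the promoters printed above, which were picked with these calls known, TLR3, EIF2AK2 and IFIT5 have a match at the start site. IFIT5, IFI6 and IFIH1 each have 3 matches, of which the printed windows show 3, 2 and 1. OAS3 has 2 matches, of which 1 is shown. BST2 and ISG15 have overlapping ones. RIGI and OAS1, both higher, had a promoter in the table without a match, which says only that these letters are not in that window. Among the other genes tested, 443 had a match, of which 132 were higher and 145 lower (median 0.0016), and 11548 had none, of which 3174 were higher and 4046 lower (median -0.040). The letters TTCNNNGAA, which resemble the element used in the type II interferon response and read the same on both strands, were found in 11 of the 42 promoters (26.2%), beside 9.38% of all genes in the table, and of those 11 genes 6 were higher, 1 lower and 4 not called. Of the 31 genes without it 9 were higher, 7 lower and 15 not called. Among 1013 other genes tested with that match, 309 were higher and 307 lower.

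**Figure D5:**
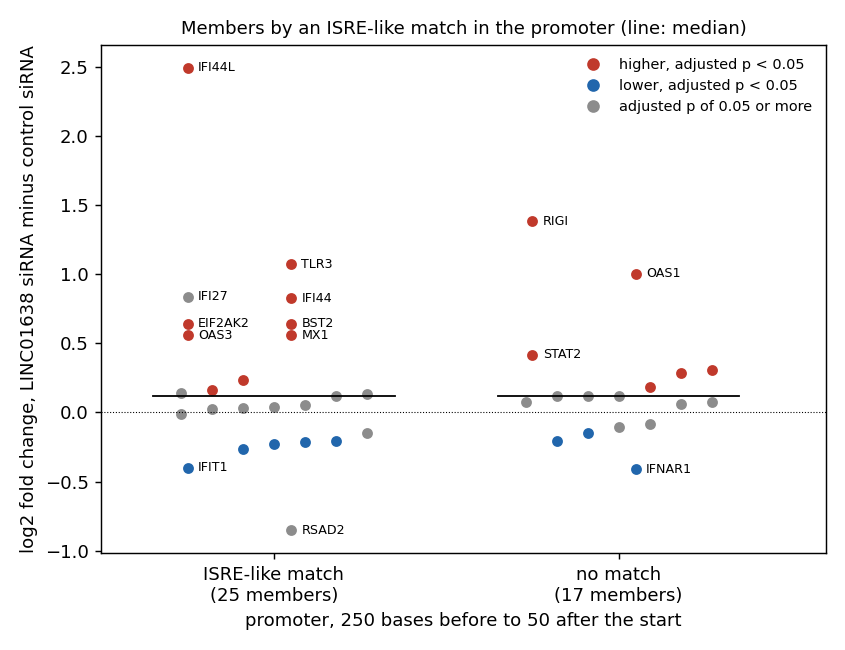
Log2 fold change (y axis, LINC01638 siRNA minus control siRNA) of the 42 genes with a promoter in the RefSeq table, with an ISRE-like match (25 genes) or without (17 genes); the horizontal position within a column only spreads the points, and the line is the median, 0.12 in both. Colours give the call, and genes beyond 0.38 in either direction are named.

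Other genes of the pathway, from lists compiled with results of these data already known, held genes of both directions. Of 33 further sensing and signalling genes 29 were tested, and 17 were higher (58.6%, against 26.3% of all genes tested), 6 lower (20.7%, against 29.6%) and 6 not called, with a median log2 fold change of 0.17. IFNLR1, the receptor chain for type III interferon, was at 1.21 ± 0.104 CPM in control and 4.36 ± 0.372 CPM after LINC01638 siRNA (log2 fold change 1.85 with SE 0.14, edgeR adjusted p = 1.72e-09). TBK1, the kinase that activates IRF3, was at 32.2 ± 1.22 and 46.3 ± 1.75 CPM (log2 fold change 0.52 with SE 0.056, edgeR adjusted p = 1.41e-07), whereas IRF3 itself fell. Lower were RNF135, a ligase that activates RIG-I (log2 fold change -0.59, edgeR adjusted p = 1.28e-05), NLRX1, a mitochondrial regulator of MAVS (-0.53, adjusted p = 9.01e-07), and SOCS1, a feedback inhibitor of JAK kinases (-0.47, adjusted p = 0.00397).

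Interferon-stimulated genes outside the 58 were called in shares near those of all genes. Of 53 listed, 51 had a matching symbol and 47 were tested, and 14 were higher (29.8%, against 26.3% of all genes tested), 14 lower (29.8%, against 29.6%) and 19 not called, with a median log2 fold change of -0.028. Of the genes whose mean reached 1 CPM, CCND3 at 0.61, TRIM38 at 0.44 and APOL1 at 0.44 had the largest upward changes (edgeR adjusted p = 3.19e-09, 3.22e-07 and 0.000489). The largest downward changes of such genes were DDX60 at -0.88, SLFN5 at -0.66 and LY6E at -0.58 (edgeR adjusted p = 0.00428, 7.98e-07 and 1.79e-08). DDX60, a helicase that assists RIG-I, thus fell while RIGI rose. With library totals alone the lower count of this list was 8, and without LINC01638 siRNA replicate B its counts were 11 higher and 17 lower. Of 19 genes of antigen presentation, a major target of type II interferon, 4 were higher (21.1%) and 5 lower (26.3%), again near the shares of all genes. The largest were B2M at 0.55 and the immunoproteasome subunit PSMB9 at -0.69 (edgeR adjusted p = 1.98e-08 and 2.72e-08). Of 8 listed chemokines 3 were tested. CCL2 rose from 3.00 ± 0.308 to 5.18 ± 0.389 CPM (log2 fold change 0.79 with SE 0.12, edgeR adjusted p = 1.28e-05) and CXCL8 fell by 0.35 (edgeR adjusted p = 0.0150), a call that did not hold when control replicate C, or replicate A of the knockdown group, was left out. CXCL10, among the chemokines most responsive to interferon, had 2 counts in control replicate A, 1 in LINC01638 siRNA replicate A and 0 in the other libraries.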

How the data were processed

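Total RNA of 12Z cells was sequenced in 6 libraries, 3 after a control siRNA and 3 after an siRNA against LINC01638, grouped by the treatment labels. Per the labels' protocols, ribosomal RNA was depleted and the libraries kept strand. The submitters' processing notes name STAR 2.7.10b, R 4.2.1 and the GRCh38 genome. Which annotation release was counted is not given in the sources used here. Values are whole-number gene counts as deposited by the authors, without normalization. The reverse-strand column was used and 4 rows that name no gene were left out. Reads mapping to several places are listed as 0, so copies of a gene are counted only by unique reads.

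Of the gene identifiers 61918 matched a symbol with their version and 707 after dropping it, and positions are those of GENCODE 29. Genes passing edgeR's filterByExpr (minimum count 10, total 15) were given TMM scaling factors and tested by edgeR's quasi-likelihood method with group as the only term, with Benjamini-Hochberg adjustment over all 18569 genes tested and a threshold of 0.05. Each SE came from the log2 fold change and its F statistic (size over the root of F). Replicates differed by more than sampling noise (chi-square per gene 5.72 to 15.7). Each was counted as 1, though these values cannot tell separate cultures from separate preparations of 1 culture. The test was checked on simulated counts. Software was DESeq2 1.42.0, limma 3.58.1 and edgeR 4.0.16 in R 4.3.3, and Python 3.11.15.

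The 58 genes and the other lists were chosen with earlier results of these data known. All 58 could be named; up to 4 called genes per role with the lowest p were given in full, and of each other list up to 3 called genes a direction with the largest change and a mean of at least 1 CPM. A gene that this rule names is not reported here. CXCL10, CD3E, FCGR3A, LILRA4, EPCAM, ESRP1 and NCAM1 were named outside this rule, after their values were seen, as were the promoters printed. The 15 alternatives were other scalings (DESeq2's size factors, library totals alone), limma-voom, DESeq2's Wald test, a filter at 1 CPM in 3 libraries and none at all, the replicate letter as a block, counts without strand, protein-coding genes only, and leaving out each library.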

Additional observations from a re-analysis of the deposited data

How the results depend on the processing

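Of the 33 genes called, 21 kept the call and direction under each of the 15 alternatives that tested them, and 12 lost it under at least 1, 9 of them on leaving out 1 library; 16 of the genes not called passed under at least 1. Leaving out each library in turn gave 19 to 21 higher and 9 to 15 lower calls among the 58 genes, and 4372 to 4681 higher and 5049 to 5409 lower calls over all genes. With library totals alone the 58 genes had 31 higher and 5 lower calls, the other interferon-stimulated genes 8 lower, antigen presentation 8 higher, and the chemokines 0 lower by edgeR; the median of all genes moved by 0.10 on the log2 scale, and the cause was not tested. Antigen presentation had 7 higher calls with the stricter filter and 7 with protein-coding genes only, against 4. The lower chemokine calls ranged from 0 to 1 on leaving out each library. In the counts without regard to strand IFNAR2 was at 0.21 in place of -0.23, and its call was lost. TYK2 also lost its call with the stricter filter and with protein-coding genes only, as IFIT3 and IFNAR2 did with the latter, and IRF9 did without a filter. The stricter filter tested 54 of the 58 genes.

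Replicate letters are shared between the groups, but the deviations of same-letter libraries did not correlate (-0.075, -0.020 and -0.018), and no library correlated best with its own letter, so the letters were not treated as pairs. With the letter as a replicate block 20 of the 58 genes were higher and 15 lower, and over all genes 4676 were higher and 5286 lower.

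The genes at or under about 1 CPM in control (RIGI, OAS2, RSAD2, IFI27, MX2 and IFI44L) had SE of 0.18 to 0.54 on the log2 scale, and the part of depth in this was not tested. For all interferon genes but IFNE a difference was not detectable in uniquely mapped reads at this depth.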
